A study of Mus musculus with 6 samples.

Results

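Products of the zymogenic chief cell were followed by gene symbol, namely Pgc, Pga5, Cblif, Bhlha15 and Chia1, which are 5 of the 17256 genes in the deposited table. All 5 were found under these symbols. They were measured by RNA-seq in epithelium of the antrum, the distal part of the stomach, in 6 libraries from C57BL/6 mice. Every animal of both groups had induced atrophic gastritis, a chronic inflammation in which specialised gland cells are lost, after MNNG (an alkylating carcinogen) and a drug written as Ranitine for 20 weeks. The 3 vehicle libraries came from mice that then received vehicle for 2 weeks, and the 3 PEEPA-P5 libraries from mice that received PEEPA-P5, known here only by that code name, by gavage for 2 weeks. Stomach without induced gastritis, and the untreated state before the 2 weeks, were not analysed here. The labels give neither age nor sex, and do not tell whether each library is a mouse of its own, so the p-values reflect only how far these libraries differ, which may be technical.

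Chief cells sit at the base of the acid-secreting glands of the gastric body, where they store and release digestive proenzymes. Pepsinogens are aspartic proteases made as inactive zymogens, and acid in the lumen converts them to pepsins. Pgc encodes the pepsinogen of pepsin C, and Pga5 a pepsinogen of the A class. Cblif encodes gastric intrinsic factor, which carries vitamin B12 (cobalamin) to its receptor in the ileum, and which is made by chief cells in mice and by parietal cells in humans. Chia1 encodes acidic mammalian chitinase, an acid-stable enzyme that cuts chitin. Bhlha15, also called Mist1, encodes the basic helix-loop-helix transcription factor that expands the secretory apparatus of zymogenic cells and is found in other serous secretory cells as well. Glands of the antrum are mainly mucous, hold few chief or parietal cells and contain the hormone cells that make gastrin, and Pgc is known to be made in antral glands too.

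The start-site windows of the 3 secreted products whose levels were highest are printed because most of the results concern these genes. They are the 250 bases before the RefSeq start site in build GRCm38.p6, read from the gene strand 5′ to 3′. A window was given for 4 of the 5 genes, matched by gene identifier, and not for Pga5. Capitals mark the letters TATAAA, the core of a TATA box, searched on both strands, and CANNTG, the E-box that basic helix-loop-helix factors bind, which reads the same on both strands.
Pgc, chr17:47726592-47726841, + strand: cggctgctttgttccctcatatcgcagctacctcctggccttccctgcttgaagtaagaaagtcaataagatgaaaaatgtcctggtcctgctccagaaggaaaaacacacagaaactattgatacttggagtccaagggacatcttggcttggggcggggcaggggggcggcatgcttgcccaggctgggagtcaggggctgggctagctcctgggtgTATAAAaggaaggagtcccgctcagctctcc
Chia1, chr3:106113132-106113381, + strand: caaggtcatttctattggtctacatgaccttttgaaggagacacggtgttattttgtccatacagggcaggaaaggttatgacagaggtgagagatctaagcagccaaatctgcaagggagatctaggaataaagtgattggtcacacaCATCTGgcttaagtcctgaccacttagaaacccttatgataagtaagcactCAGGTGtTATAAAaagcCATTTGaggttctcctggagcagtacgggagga
Cblif, chr19:11747309-11747558, + strand: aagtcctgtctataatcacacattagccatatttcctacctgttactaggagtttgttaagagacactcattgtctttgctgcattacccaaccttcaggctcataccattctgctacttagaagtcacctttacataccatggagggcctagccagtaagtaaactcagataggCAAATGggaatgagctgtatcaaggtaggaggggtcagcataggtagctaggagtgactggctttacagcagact
The Pgc window holds TATAAA with its first base 31 bases before the start and no CANNTG. In the Chia1 window TATAAA begins 43 bases before the start, and CANNTG occurs at 101, 50 and 33 bases before it, none of them overlapping TATAAA. The Cblif window has no TATAAA on either strand and a single CANNTG, at 75 bases before the start. The Bhlha15 window, not printed, has CANNTG at 200, 187 and 55 bases before the start and no TATAAA, and its G and C content was 66.8% against 54.8%, 43.6% and 44% in the windows of Pgc, Chia1 and Cblif. Of 32851 start-site windows of the same length, 12.4% hold TATAAA on either strand and 66.2% hold CANNTG. The E-box form CATATG was searched as well and is in none of the 4 windows, against 3.46% of all windows. A match describes the letters of these windows only.

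Total counts ran from 16388844 to 16903545 per library. PEEPA-P5 3 stood apart from the rest in some marker lists written for cell types, and both libraries numbered 3 stood apart in the gene for gastrin. PEEPA-P5 3 had the lowest summed TPM (a level corrected for transcript length and scaled to the same sum in every library) for fibroblasts, at 6.95 against 50.5 to 139 in the other libraries, and for endothelium, at 8.13 against 34.0 to 67.4. Gast, the gastrin gene that marks antral G cells and which was picked for mention after its values were seen, was at 9492, 6822 and 609.6 TPM in vehicle 1 to 3 and at 7032, 4990 and 199 TPM in PEEPA-P5 1 to 3. The antral marker was therefore present in every library and lowest in both libraries numbered 3. Whether the dissected region differed between libraries was not tested. The differences of the 5 genes, and the counts and medians of the gene lists that moved most, are also given without these libraries, as alternatives chosen after seeing the data.

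Pgc was among the most abundant transcripts of the tissue and was spread widely between libraries. It stood at 8169, 22536 and 68237 TPM in vehicle 1 to 3, and at 6512, 8774 and 2065 TPM in PEEPA-P5 1 to 3. Vehicle 3 was far above all others, PEEPA-P5 3 was the lowest, and PEEPA-P5 2 lay above vehicle 1, so the groups overlapped. By TPM it was the 2nd most abundant gene of vehicle 3 and the 42nd of PEEPA-P5 3. The group means were 5784 ± 3413 TPM with PEEPA-P5 and 32981 ± 31367 TPM with vehicle (SD, n = 3 each). With edgeR's quasi-likelihood test the log2 difference (PEEPA-P5 minus vehicle) was -2.53 with a standard error of 0.92 and a 95% interval from -4.78 to -0.28 (unadjusted p = 0.0333, Benjamini-Hochberg adjusted p = 0.412). Without vehicle 3 it was -1.24, and -0.86 with both libraries numbered 3 left out.

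Pga5, the other pepsinogen, was a far scarcer transcript, by a factor of 968 to 3109 in TPM within a library. Its levels were 8.40, 13.6 and 21.9 TPM in vehicle 1 to 3, and 6.73, 8.35 and 2.00 TPM in PEEPA-P5 1 to 3, from 40 to 434 counts. The order of the libraries resembled that of Pgc, with vehicle 3 highest and PEEPA-P5 3 lowest. Vehicle 1 and PEEPA-P5 2 had nearly the same level, at 8.40 and 8.35 TPM, and on the CPM scale (counts relative to a library size scaled by TMM, edgeR's trimmed mean of M values) they changed places, at 9.54 and 9.57. The group means were 5.69 ± 3.30 TPM with PEEPA-P5 and 14.7 ± 6.83 TPM with vehicle (SD, n = 3 each), and the log2 difference was -1.34 with a standard error of 0.55 (edgeR, unadjusted p = 0.0483, adjusted p = 0.412). It was -0.80 without vehicle 3, -0.96 without PEEPA-P5 3 and -0.42 without both libraries numbered 3.

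Other aspartic proteases were listed beside the pepsinogens. Of 7 listed genes all were in the table and 4 were tested, of which 2 were higher and 2 lower, with 0 at an unadjusted p under 0.05 and a median log2 difference of 0.03, against -0.0047 over all tested genes. Ctse, which encodes the intracellular protease cathepsin E of gastric surface cells, was at 3098 TPM with PEEPA-P5 and 2867 TPM with vehicle, a log2 difference of 0.23 (standard error 0.17). Ctsd, the lysosomal cathepsin D gene, had a log2 difference of -0.12, and Bace2, a membrane-bound aspartic protease gene, of 0.17. Ctse was thus a more abundant aspartic protease transcript than Pga5 in all 6 libraries, and less abundant than Pgc in all but PEEPA-P5 3, where Ctse was at 3359 and Pgc at 2065 TPM.

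Cblif was the member whose groups were most clearly apart. Its levels were 192, 427 and 351 TPM in vehicle 1 to 3, and 57.9, 122 and 8.33 TPM in PEEPA-P5 1 to 3. Every PEEPA-P5 library lay below every vehicle library, and the lowest vehicle library was 1.57 times the highest PEEPA-P5 library. The group means were 62.8 ± 57.1 TPM with PEEPA-P5 and 323 ± 120 TPM with vehicle (SD, n = 3 each). The log2 difference was -2.32 with a standard error of 0.85 and a 95% interval from -4.40 to -0.23 (edgeR, unadjusted p = 0.0347, adjusted p = 0.412). Here the vehicle libraries lay within a factor of 2.23 of each other and the PEEPA-P5 libraries within a factor of 14.7, the reverse of Bhlha15. The difference was -1.80 without PEEPA-P5 3 and -3.19 without PEEPA-P5 2, and leaving out both libraries numbered 3 gave -1.64.

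The receptor and the intracellular handling of cobalamin were looked at beside its carrier. Of 15 listed genes 14 were in the table and 12 were tested, of which 4 were higher and 8 lower, and 1 was lower and 0 were higher at an unadjusted p under 0.05, a share near the 6.14% of all tested genes called lower. The median log2 difference was -0.14. The gene called was Mmut, the mitochondrial mutase that uses cobalamin, at 10.5 ± 1.79 TPM with PEEPA-P5 and 15.5 ± 4.82 TPM with vehicle, a log2 difference of -0.46 (standard error 0.19, edgeR adjusted p = 0.412), and it was not called without vehicle 3 or PEEPA-P5 3. Cubn and Amn, the 2 chains of the ileal receptor for intrinsic factor, did not exceed 1 and 5 counts in a library and were named after their values were seen.

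Chia1 had the widest range of the 5 genes. It stood at 177, 1265 and 3710 TPM in vehicle 1 to 3, and at 0.74, 217 and 0.27 TPM in PEEPA-P5 1 to 3. PEEPA-P5 1 and 3 held only 16 and 6 counts, against 4663 in PEEPA-P5 2 and 3820, 26195 and 80354 in the vehicle libraries. PEEPA-P5 2 lay above vehicle 1, so the groups overlapped although the other PEEPA-P5 libraries were far below every vehicle library. The group means were 72.6 ± 125 TPM with PEEPA-P5 and 1717 ± 1810 TPM with vehicle (SD, n = 3 each). The log2 difference was -4.63 with a standard error of 2.45 and a 95% interval from -10.6 to 1.37, which includes 0 (edgeR, unadjusted p = 0.108, adjusted p = 0.477). The size and the unadjusted call depended on the method. It was -7.72 in limma-voom, -6.91 and -7.85 in limma with a trend on log2(TPM + 1) and log2(TPM + 0.1), and -4.62 in DESeq2. The unadjusted p from these limma and DESeq2 fits across all genes was 0.0156, 0.0115, 0.0131 and 0.0345, each under 0.05, and the adjusted p ran from 0.325 to 0.510. In edgeR it was -11.7 without PEEPA-P5 2, -3.16 without vehicle 3 and -2.57 without both libraries numbered 3.

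Relatives of Chia1 stood far below it in the vehicle libraries. Of 9 genes listed for the chitinase family all were in the table and 4 were tested, of which 2 were higher and 2 lower, with 0 at an unadjusted p under 0.05 and a median log2 difference of 0.07. Chid1, a chitinase-domain gene, was at 9.76 TPM with PEEPA-P5 and 9.92 TPM with vehicle, and Ctbs, the lysosomal chitobiase gene, at 2.61 and 2.85 TPM. Chit1, which encodes chitotriosidase, the other active mammalian chitinase, was at 1.22 TPM with PEEPA-P5 and 2.72 TPM with vehicle, where vehicle 3 alone reached 5.78 TPM (log2 difference -1.15 with a standard error of 0.74, and 0.20 without vehicle 3). Summed over the list, Chia1 left out, the levels were 15.2 to 19.3 TPM with vehicle and 11.8 to 22.3 TPM with PEEPA-P5.

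Bhlha15 was the scarcest transcript of the 5 in the vehicle libraries. Its levels were 2.17, 4.44 and 7.93 TPM in vehicle 1 to 3, and 2.39, 1.73 and 1.88 TPM in PEEPA-P5 1 to 3, from 95 to 439 counts. Vehicle 2 and 3 stood above the other libraries, whereas vehicle 1 lay within the narrow PEEPA-P5 range, and PEEPA-P5 3, the lowest library for the secreted products, was not the lowest here. The group means were 2.00 ± 0.35 TPM with PEEPA-P5 and 4.85 ± 2.90 TPM with vehicle (SD, n = 3 each), and the log2 difference was -1.22 (standard error 0.49, edgeR, unadjusted p = 0.0433, adjusted p = 0.412). It was -0.52 without vehicle 3 and -0.54 without both libraries numbered 3.

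**Figure D1:**
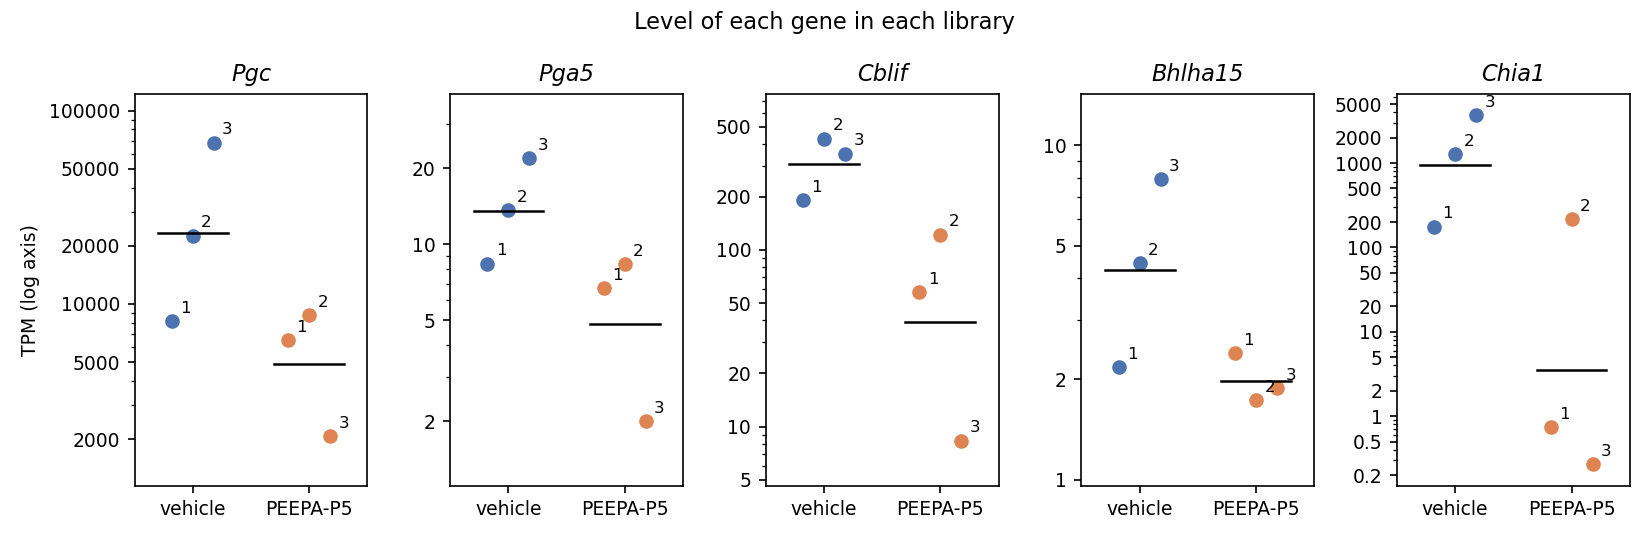
Level of each gene in TPM (log axis) in each library, with the library number beside each point and the geometric mean of a group as a line. Vehicle 3 is highest for Pgc, Pga5, Bhlha15 and Chia1, PEEPA-P5 3 is lowest for all but Bhlha15, and only for Cblif are the groups clearly apart.

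With edgeR, 0 of the 5 genes passed the adjusted threshold of 0.05, nor did any with DESeq2 or limma. Over all genes, 0% of the 13071 tested passed in edgeR, 0 genes in limma and 110 genes in DESeq2. At an unadjusted p under 0.05 there were 4 of the 5, all lower with PEEPA-P5, where 6.14% of all tested genes were called lower. The 5 genes were chosen with earlier results of these data known, so this count is a description. On the CPM scale the groups did not overlap in 1 of the 5, Cblif, where 10.7% of all tested genes lay wholly lower and 9.75% wholly higher. The log2 differences of the 5 ran from -4.63 to -1.22 with a median of -2.32, against -0.0047 over all tested genes, and 5.39% of those had a log2 difference of -1 or lower. An exact two-sided permutation test of log2 TPM gave p = 0.1 for Pga5 and Cblif, the smallest possible with 3 against 3 libraries, and p = 0.2 for Pgc, Bhlha15 and Chia1, with adjusted p = 0.2 over the 5 tests. These are bulk libraries, so fewer chief cells and less RNA per cell cannot be told apart, nor was a difference in the dissected region tested.

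The number of these genes at an unadjusted p under 0.05 depended on single libraries. It was 1 without vehicle 2, 0 without vehicle 3, 0 without PEEPA-P5 1 and 1 without PEEPA-P5 3, and 4 without vehicle 1 or PEEPA-P5 2. Over all 6 libraries it was 5 with DESeq2 and with both limma-trend fits, and 3 with limma-voom and with upper quartile factors. With the library number as a block in the model it was 2, namely Cblif and Chia1, at log2 differences of -2.70 and -7.51 (edgeR, adjusted p = 0.364 for both). The sign of all 5 log2 differences was negative in every fit that gave a value. The share of all tested genes called lower also fell, from 6.14% to 2.67% without vehicle 3, 4.92% without PEEPA-P5 3 and 4.48% without both. The share called higher went from 5.92% to 3.05%, 3.85% and 3.47% in these settings, so counts in the gene lists below are to be read beside these shares. The labels do not state that libraries of the same number are pairs. Taken as such, TPM with PEEPA-P5 was lower in 3 of 3 for Pgc, Pga5, Cblif and Chia1 and in 2 of 3 for Bhlha15. For Pgc the vehicle library was 1.25, 2.57 and 33.0 times its PEEPA-P5 counterpart in pairs 1, 2 and 3, so that pair 3 stood far from the others.

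**Figure D2:**
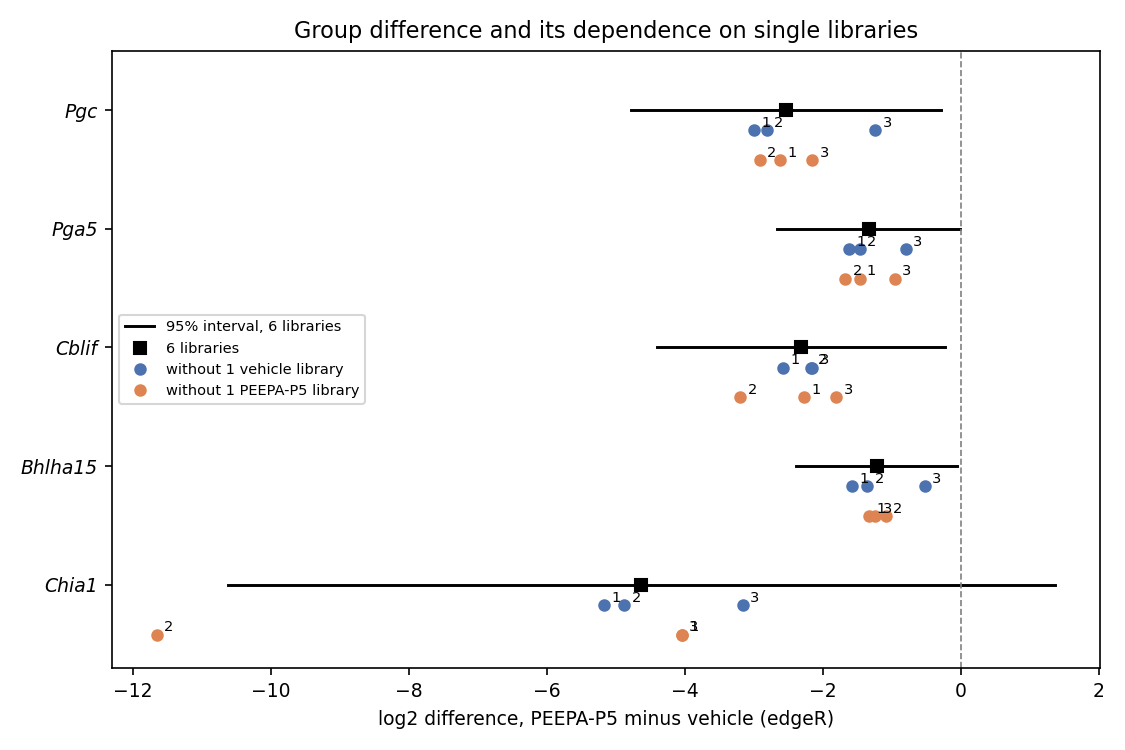
Log2 difference between PEEPA-P5 and vehicle from edgeR for each gene, as a square with its 95% interval over 6 libraries, and as circles with each vehicle or PEEPA-P5 library left out, labelled with its number. All values are negative, the interval of Chia1 includes 0, and leaving out vehicle 3 gives the value nearest to 0 for Pgc, Pga5, Bhlha15 and Chia1.

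Spread within the groups was large for all 5 genes. The pooled within-group SD of log2 CPM was 1.34 for Pgc, 0.88 for Pga5, 1.39 for Cblif, 0.73 for Bhlha15 and 3.85 for Chia1, against a median of 0.22 over all tested genes. Pgc was more variable than 97.6% of tested genes, Cblif than 97.9%, Pga5 than 91.6% and Bhlha15 than 88.6%. The groups contributed differently. Bhlha15 had an SD of 1.01 among vehicle and 0.26 among PEEPA-P5 libraries, whereas Cblif had 0.59 among vehicle and 1.87 among PEEPA-P5 libraries.

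Ratios within a library remove what the 5 genes have in common there. Pga5 in percent of Pgc was 0.103%, 0.0605% and 0.0322% in vehicle 1 to 3, and 0.103%, 0.0952% and 0.0969% in PEEPA-P5 1 to 3. The 4 libraries with the least Pgc therefore held the 2 pepsinogens in nearly the same proportion, and in vehicle 2 and 3 Pgc was higher relative to Pga5. Cblif in percent of Pgc was 2.34%, 1.90% and 0.514% with vehicle (libraries 1 to 3) and 0.889%, 1.39% and 0.403% with PEEPA-P5, lowest in both libraries numbered 3. For Bhlha15 it was 0.0266%, 0.0197% and 0.0116% with vehicle and 0.0367%, 0.0197% and 0.091% with PEEPA-P5. Chia1 stood at 2.16%, 5.61% and 5.44% of Pgc in vehicle 1 to 3 and at 2.47% in PEEPA-P5 2, but at 0.0114% and 0.0131% in PEEPA-P5 1 and 3. Those 2 libraries held Pgc at a level 8800 and 7648 times that of Chia1, while PEEPA-P5 2 held it at 40.5 times, close to vehicle 1 at 46.3 times.

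The log2 ratio to Pgc differed between the groups by 0.75 for Pga5, -0.73 for Cblif, 1.15 for Bhlha15 and -5.82 for Chia1. An exact two-sided permutation test, which cannot give a p below 0.1 with 3 against 3 libraries, gave p = 0.3, 0.5, 0.2 and 0.2 (adjusted p = 0.4, 0.5, 0.4 and 0.4 over the 4 tests), so the test cannot say whether the ratios differed. Without PEEPA-P5 2 the difference for Chia1 was -8.37, and the others kept their sign with each library left out in turn.

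**Figure D3:**
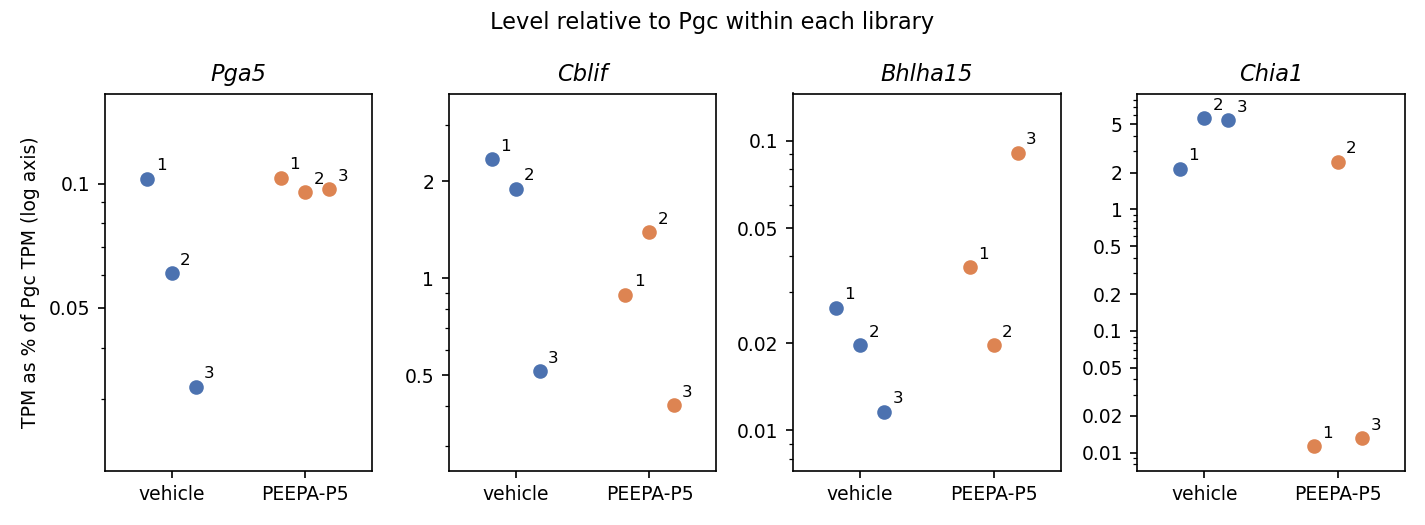
TPM of each gene in percent of Pgc TPM in the same library (log axis), with library numbers. Pga5 lies between 0.0952% and 0.103% in vehicle 1 and the 3 PEEPA-P5 libraries, and Chia1 lies between 2.16% and 5.61% in all but PEEPA-P5 1 and 3.

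Part of the zymogenic secretory machinery was lower beside these products. Of 15 listed genes 14 were in the table and 12 were tested, of which 4 were higher and 8 lower, and 4 were lower and 0 higher at an unadjusted p under 0.05, against 6.14% of all tested genes called lower and 5.92% called higher. The median log2 difference was -0.37. The number lower was 1 without vehicle 3, 2 without PEEPA-P5 3 and 1 without both, where Derl3 alone was called in the first and last. Pdia2, a protein disulfide isomerase of zymogen-making cells, was at 12.2, 58.2 and 84.1 TPM in vehicle 1 to 3 and at 1.01, 13.7 and 0.28 TPM in PEEPA-P5 1 to 3. Its libraries ranked in the same order as those of Chia1, with PEEPA-P5 2 just above vehicle 1, and the log2 difference was -3.37 with a standard error of 1.35, or -2.66 without vehicle 3 and -2.11 without both libraries numbered 3. Tmed6, a cargo carrier of the early secretory pathway, was at 20.6, 52.6 and 68.1 TPM in vehicle 1 to 3 and at 16.2, 23.5 and 5.91 TPM in PEEPA-P5 1 to 3. Derl3, which acts in degradation of misfolded secretory proteins, had a log2 difference of -2.42, and Tnfrsf19, a receptor known as Troy that marks some gastric chief cells, one of -1.95. By contrast Xbp1, the transcription factor that acts upstream of Bhlha15 in secretory cells, was at 124 TPM with PEEPA-P5 and 126 TPM with vehicle, and Rab3d, a small GTPase of secretory granules, at 99.3 and 96.8 TPM. These last 2 were named after their values were seen.

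Receptors that act on chief cell secretion, not all of them stimulating, were also listed. Of 8 genes all were in the table and 7 were tested, of which 0 were higher and 7 lower, with 3 lower at an unadjusted p under 0.05, against 6.14% of all tested genes, and a median log2 difference of -0.74. Only Cckbr was called without vehicle 3, without PEEPA-P5 3 or without both. Of those tested, 2 were higher and 5 lower without vehicle 3, and 0 were higher in the other settings. Sctr, the secretin receptor gene and the most abundant of the list, was at 44.8 TPM with PEEPA-P5 and 45.8 TPM with vehicle. Its log2 difference was -0.03 (standard error 0.29), and it was 0.18 without vehicle 3. Cckbr, the receptor for gastrin and cholecystokinin, was at 0.30, 1.15 and 2.40 TPM in vehicle 1 to 3 and at 0.03, 0.11 and 0.08 TPM in PEEPA-P5 1 to 3, a log2 difference of -4.12 (standard error 0.97, edgeR adjusted p = 0.412), or -3.09 without vehicle 3 and -3.23 without both libraries numbered 3. Cckar, the cholecystokinin receptor, was at 0.90, 3.78 and 8.83 TPM with vehicle and at 0.09, 0.95 and 0 TPM with PEEPA-P5. The muscarinic receptor gene Chrm3 had a log2 difference of -0.74. Cckbr is also a receptor of parietal and histamine-making cells, and the levels of Cckbr and Cckar are low.

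Marker genes of other cell types differed beside the 5 genes, and their part in the results was not tested. For parietal cells, which make acid, 13 of 13 listed genes were tested, of which 12 were lower and 1 higher, with 8 lower at an unadjusted p under 0.05, against 6.14% of all tested genes, and a median log2 difference of -2.42. Without vehicle 3 there were 2 called and the median was -1.61, without PEEPA-P5 3 there were 2 and -2.02, and without both 2 and -1.20. In the first and last of these settings 11 were lower and 2 higher. Over all libraries the 8 were Kcne2, Kcnq1 and Kcnj15 (potassium channel genes), Slc26a7 (an anion exchanger), Clic6, Esrrg, the histamine receptor gene Hrh2 and Vegfb. The proton pump genes Atp4a and Atp4b were not called, at log2 differences of -3.73 and -4.00 (edgeR, unadjusted p = 0.136 and 0.0924). Slc9a4 and Slc26a9, counted as lower, were at -0.02 and -0.12. Summed over all 13 genes the level was 2471 to 5417 TPM with vehicle and 2065 to 2496 TPM with PEEPA-P5, of which Car2, a carbonic anhydrase gene shared with surface cells and the 1 higher gene, made up 1698 to 2102 TPM. The growth factor gene Vegfb recurs among the genes nearest to Pga5. The list for exocrine pancreas, whose acinar cells also use Bhlha15, had 17 of 19 genes in the table and 7 tested, with 6 lower and 1 higher, and 4 at an unadjusted p under 0.05, all of them lower (6.14% of all tested genes). These were Amy2a5, the lipase genes Cel and Pnliprp2, and Sycn, which encodes a zymogen granule protein. Amy2a5 is an amylase gene with near-identical copies whose reads may not be told apart. It was at 9.60, 821 and 559 TPM in vehicle 1 to 3 and at 0, 11.4 and 0 TPM in PEEPA-P5 1 to 3. The group means were 463 TPM with vehicle and 3.81 TPM with PEEPA-P5, but PEEPA-P5 2 lay above vehicle 1, so the groups overlapped. The list summed to 447 to 1308 TPM with vehicle and 260 to 451 TPM with PEEPA-P5. The number called was 3 without vehicle 3, 1 without PEEPA-P5 3 and 1 without both. The proteases of the list were unequal. Prss1 never exceeded 3 counts in a library and neither Ctrb1 nor Cela3b exceeded 2, whereas the elastase gene Cela1 was at 367 ± 86.1 TPM with vehicle and 358 ± 100.3 TPM with PEEPA-P5, with a log2 difference of 0.07, and made up much of the sum. Plasma cells, which also express Bhlha15, had 8 of 11 genes in the table and 5 tested, with 3 lower and 2 higher. At an unadjusted p under 0.05 there was 1 lower, against 6.14% of all tested genes called lower. It was Derl3, which is also in the list of zymogenic machinery. Their summed level was 77.8 to 88.6 TPM with vehicle and 70.6 to 88.0 TPM with PEEPA-P5, of which Sdc1, a gene that epithelium expresses too, made up 54.6 to 79.7 TPM. Jchain, the joining chain of secreted antibodies, was at 8.15, 4.74 and 17.2 TPM in vehicle 1 to 3 and at 2.05, 10.3 and 0.91 TPM in PEEPA-P5 1 to 3, with overlapping groups. Mzb1, a chaperone gene of antibody-making cells, was at 0.64 TPM with vehicle and 0.03 TPM with PEEPA-P5, too low to be tested, and Tnfrsf17 had at most 1 count in any library. The list's median log2 difference was -1.05, and 0.021 without both libraries numbered 3.

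Mucous cells of the neck and gland lie in the same glands as chief cells. Of 7 listed genes all were tested, with 3 higher and 4 lower, and a median log2 difference of -0.17 that was 0.15 without PEEPA-P5 3. At an unadjusted p under 0.05 there were 2 lower and 1 higher, against 6.14% of all tested genes called lower and 5.92% called higher. Without vehicle 3, without PEEPA-P5 3 or without both there were 0 lower, and 1, 1 and 2 higher. Muc6, the gland mucin, was at 167, 435 and 500.3 TPM in vehicle 1 to 3 and at 136, 178 and 80.4 TPM in PEEPA-P5 1 to 3, with PEEPA-P5 2 above vehicle 1 as for Pgc. A4gnt, which adds the terminal sugar of gland mucin, was at 24.6 ± 11.8 TPM with PEEPA-P5 and 53.7 ± 18.5 TPM with vehicle. Wfdc2, a secreted protein gene of mucous cells, stood the other way, at 123 ± 7.28 TPM with PEEPA-P5 and 86.0 ± 13.8 TPM with vehicle. Summed levels of this list were 18433 to 29671 TPM with vehicle and 18882 to 24591 TPM with PEEPA-P5. All 8 listed genes of surface pit cells were higher with PEEPA-P5, with a median log2 difference of 0.33 and 5 at an unadjusted p under 0.05, against 5.92% of all tested genes called higher. There were 2 called without vehicle 3, without PEEPA-P5 3 or without both. Their summed level was 312239 to 354565 TPM with vehicle and 359169 to 408181 TPM with PEEPA-P5, highest in PEEPA-P5 3.

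Endothelium, fibroblasts and smooth muscle had 8 of 8 listed genes lower in each list, with median log2 differences of -0.88, -0.66 and -0.70 and 0 at an unadjusted p under 0.05. PEEPA-P5 3 was the lowest library of all 3 lists, with smooth muscle at 8.99 TPM summed against 49.8 to 179 in the others. Without that library the medians were -0.44, -0.14 and -0.21, and fibroblast genes were then lower in 4 of 8. Without vehicle 3 the medians were -0.90, -0.87 and -1.03, and without both libraries numbered 3 they were -0.46, -0.37 and -0.52. Fibroblast genes were lower in 8 of 8 in each of these settings. At an unadjusted p under 0.05, 1 endothelium gene was lower without PEEPA-P5 3. Without both libraries it was 2 endothelium and 2 fibroblast genes, against 4.48% of all tested genes. Without PEEPA-P5 3 the log2 differences of the 5 genes ran from -4.04 for Chia1 to -0.96 for Pga5. Without both libraries numbered 3 they ran from -2.57 for Chia1 to -0.42 for Pga5. Whether the share of these other cells bears on the 5 genes was not tested. Enteroendocrine genes were lower in 10 of 10, with 1, Ghrl, at an unadjusted p under 0.05, against 6.14% of all tested genes called lower. They were lower in 7 of 10 without PEEPA-P5 3, with 2 called. Without vehicle 3 they were lower in 10 of 10 with 1 called, and without both libraries numbered 3 in 10 of 10 with 4 called. For squamous forestomach 8 of 11 listed genes were in the table and 4 were tested, with a median log2 difference of 1.28. All 4 were higher and at an unadjusted p under 0.05 (5.92% of all tested genes). All 4 also had no overlap between the groups, where 9.75% of all tested genes lay wholly higher. These keratinocyte products were Krt78, Krt13, Krt4 and Sprr1a, and Krt78 was at 15.6 ± 1.08 TPM with PEEPA-P5 and 7.31 ± 1.28 TPM with vehicle. Of the 4, all were called without vehicle 3, 2 without PEEPA-P5 3 and 3 without both libraries numbered 3. The basal keratin genes Krt5 and Krt14 had at most 1 count in any library.

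**Figure D4:**
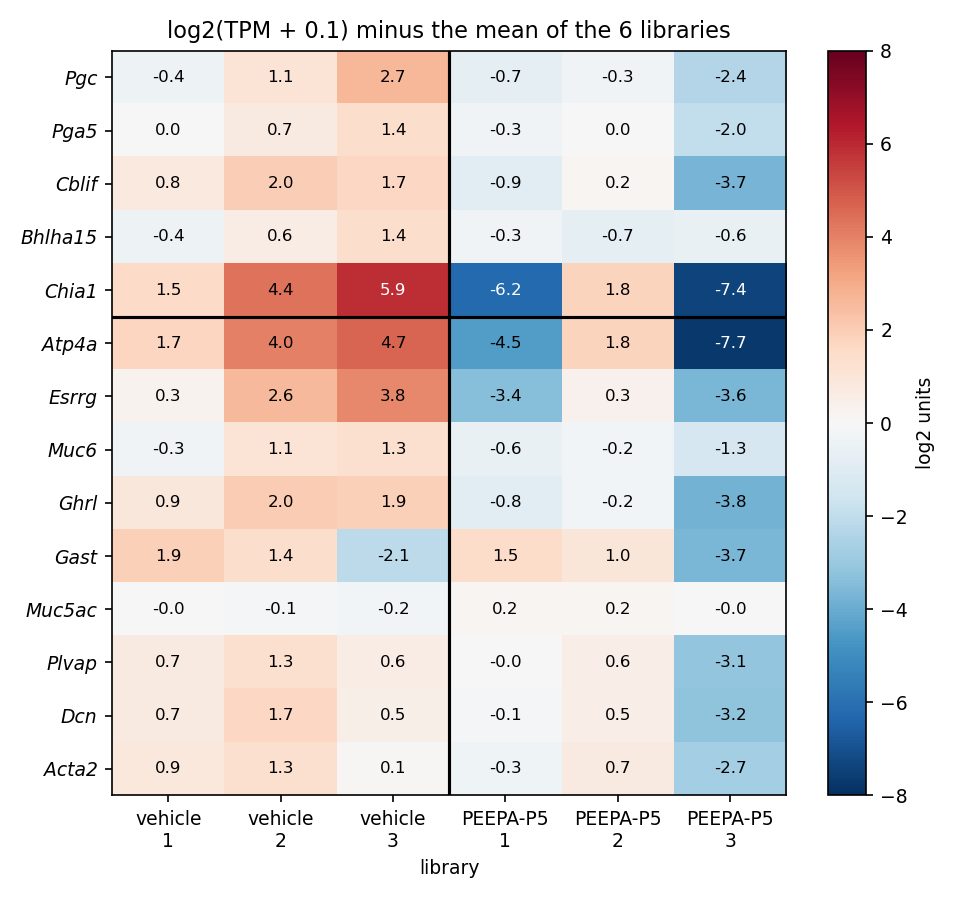
Log2(TPM + 0.1) of the 5 genes (above the line) and of marker genes of other cells, each minus its mean over the 6 libraries, with the value printed in each cell. The marker genes were picked by hand and do not stand for their lists. Muc6, Dcn and Ghrl had the lowest log2 difference of their lists, while Tff2, Aqp5 and Wfdc2 of the mucous list were higher with PEEPA-P5. Chia1 and Atp4a share the 2 low cells of PEEPA-P5 1 and 3, PEEPA-P5 3 is low in most rows, and Gast is low in both libraries numbered 3.

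The genes whose profiles over the 6 libraries were most like each member were taken from 12025 others with a mean of at least 1 CPM, by the root mean square difference of centred log2 CPM. Those nearest to Pgc were Kank1, Prss23 and Septin6, at 0.21, 0.21 and 0.26 log2 units. Prss23, a secreted serine protease gene, was at 6.13, 17.04 and 35.65 TPM in vehicle 1 to 3 and at 3.88, 6.78 and 1.37 TPM in PEEPA-P5 1 to 3, where Pgc ran in the same order of libraries. Nearest to Pga5 were Plekhf1, Ppp3cc and Vegfb, at 0.13, 0.14 and 0.16. Ghrl, which encodes the hormone ghrelin of oxyntic endocrine cells, was the nearest to Cblif, at 0.20, ahead of Abcc9 and Ntn1 at 0.31 and 0.33. Ghrl stood at 1430, 3107 and 2962 TPM in vehicle 1 to 3 and at 440, 652 and 57.4 TPM in PEEPA-P5 1 to 3, a pattern with vehicle 2 highest like that of Cblif. Hsf4, Foxo6 and Rufy4 were nearest to Bhlha15, at 0.22, 0.22 and 0.23.

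Chia1 had no close match by this distance, with its nearest genes at 0.95 or more. The distance is not scaled, so it grows with the range of a gene, and that of Chia1 was the widest of the 5. These were Pla2g1b, a secreted phospholipase A2 gene, and Atp4a and Atp4b, the 2 subunits of the parietal proton pump, at 0.95, 0.95 and 1.05 log2 units. Pla2g1b was at 744, 4781 and 12124 TPM in vehicle 1 to 3 and at 19.3, 1173 and 2.45 TPM in PEEPA-P5 1 to 3. Atp4a was at 115, 567 and 892 TPM with vehicle and at 1.51, 120 and 0.07 TPM with PEEPA-P5, with PEEPA-P5 2 above vehicle 1 as for Chia1. Among the 5 genes themselves the closest pair was Pgc and Pga5, at 0.62, followed by Pga5 and Bhlha15 at 0.67. Pga5 ranked 74 among all candidates by likeness to Pgc, and Pgc ranked 636 by likeness to Pga5, so neither was the other's nearest gene. Chia1 was 3.39 or more from each of the other members, although by TPM its libraries ranked in the same order as those of Pgc. These distances describe 6 libraries that share their groups and, within a library, their depth.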

How the data were processed

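RNA was sequenced from 6 libraries of antrum epithelium, made with Illumina TruSeq kits from Trizol-extracted RNA, per the labels' protocols. Bowtie2 2.2.5, RSEM 1.2.12 and build mm9 are named in the submitters' processing notes, with neither their roles nor their settings. Expected counts, FPKM and TPM of each library were deposited, per the file headers. The deposited expected counts are not normalized, 9.82% were not whole (tolerance 0.001), and they were rounded. The authors' FPKM corrects for library size and length, and their TPM sums to the same value in every library. The 6 columns of the authors' group means were not used.

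The test over all genes was that of edgeR 4.0.16 under R 4.3.3 (robust quasi-likelihood, TMM, expression filter, 13071 genes), without covariates, with Benjamini-Hochberg adjustment over all of them. The fit was tested on simulated data. Standard errors are the log2 difference over the square root of F. No molecular identifiers are named, so counts are of reads, not of molecules. All pairs of libraries differed beyond sampling noise (lowest chi-square 13.3 per degree of freedom). Deviations from group means, over all tested genes, correlated at 0.237, 0.346 and 0.235 for libraries numbered 1, 2 and 3, so the numbers were taken as possible pairs. Unlike numbers ran from -0.349 to 0.176, the highest for vehicle 2 with PEEPA-P5 1. These values cannot establish pairs, because deviations from a mean of 3 libraries depend on each other. The pairing comes from the data, not the labels.

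The members and lists were chosen with earlier results of these data known. Named genes were the 5 members, the list genes at an unadjusted p under 0.05 (otherwise up to 3 with the highest mean TPM), and the 3 genes most like each member, predicted models left out. Not all of the genes at that p in marker lists are named. Genes outside this rule were picked by hand with their values known. They were Gast, Cubn, Amn, Xbp1, Rab3d, Sctr, Slc9a4, Slc26a9, Car2, Cela1, Prss1, Ctrb1, Cela3b, Sdc1, Jchain, Mzb1, Tnfrsf17, Tff2, Aqp5, Krt5 and Krt14. In the GENCODE M21 transcripts, 0% of the 31-base stretches of Pgc, Pga5 and Cblif, 0.35% of Bhlha15 and 0.98% of Chia1 occur in other genes, and no annotated gene overlaps their loci. Start-site sequences are from RefSeq, build GRCm38.p6, and coordinates of mm9 are not used here. Alternatives were DESeq2 1.42.0, limma 3.58.1 (voom, and log2 TPM plus 1 or plus 0.1 with a trend), other scalings and filters, the block and left-out libraries.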

Additional observations from a re-analysis of the deposited data

How the results depend on the processing

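The log2 differences of the 5 genes were negative, with an adjusted p above 0.05, in all alternatives that gave a value. Chia1 gave none with at least 10 counts required in every library. DESeq2 called 110 genes past the adjusted threshold and none of the 5, whose lowest adjusted p in any alternative was 0.191. Leaving out 1 library gave 0 to 1 such genes, and 717 to 2070 genes at an unadjusted p under 0.05, the lowest without vehicle 2, with 759 without vehicle 3 and 1008 without PEEPA-P5 1. The fit with the replicate block gave 0 and 1788 genes and changed no adjusted call.

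The number of the 5 genes at an unadjusted p under 0.05, an alternative chosen after seeing the data, was 5 with DESeq2 and with both limma-trend fits, 3 with limma-voom and with upper quartile factors, 1 with no count filter, 2 with the block, 0 without both libraries numbered 3 and 0 to 4 with 1 library left out. The causes were not tested. Leaving out 1 library gave log2 differences from -2.997 to -1.24 for Pgc, -1.67 to -0.80 for Pga5, -3.19 to -1.80 for Cblif, -1.57 to -0.52 for Bhlha15 and -11.7 to -3.16 for Chia1. For the log2 ratios to Pgc it gave 0.32 to 1.16 for Pga5, -1.41 to -0.24 for Cblif, 0.56 to 1.66 for Bhlha15 and -8.37 to -4.49 for Chia1. Of the list medians, without vehicle 3 or PEEPA-P5 3 that of aspartic proteases was 0.023 or -0.0065 and that of mucous cells -0.47 or 0.15, and that of plasma cells was 0.021 without both libraries numbered 3. Counts of 16 and 6 limit the precision of Chia1 in PEEPA-P5 1 and 3.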
